A study of Rattus norvegicus with 7 samples.

Results

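The auxiliary subunits of voltage-gated calcium channels were measured as messenger RNA in the whole brain of rats bred selectively for high or low voluntary alcohol drinking. The list holds 9 genes: the α2δ subunit genes Cacna2d1, Cacna2d2 and Cacna2d3, the β subunit genes Cacnb1, Cacnb2, Cacnb3 and Cacnb4, and the γ subunit genes Cacng2 and Cacng3. Members were the transcript probes of the array whose RefSeq accession, without its version, belongs to 1 of these genes. This gave 7 of 33849 transcript probes, for 6 of the 9 genes, out of 7207 probes that could be named for 6046 genes. No probe was matched to Cacnb4, Cacng2 or Cacng3, and these 3 genes are not analysed here. All 7 probes lay above background on all 7 arrays, and all were tested.

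Adult male Wistar rats of the Alcohol Preferring (P) line were compared with rats of the Alcohol Non-Preferring (NP) line. Both lines were alcohol naive, were housed 2 to a cage and came from selective breeding, with no transgene or drug named in the labels. RNA of 1 rat was hybridized to 1 array, for 4 P rats (P 1 to P 4) and 3 NP rats (NP 2 to NP 4), so replicates are separate rats. The comparison asks which transcripts differ between the lines before any exposure to alcohol.

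The file headers carry 3 dates. P 1, P 2, NP 2 and NP 3 share header date 1, NP 4 alone has header date 2, and P 3 and P 4 share header date 3. The arrays of date 1 also name another project line than the other 3 arrays. The headers do not say what step these dates record, and both lines are present on date 1 only. Arrays had 77.9% to 85.9% of transcript probes above background, and the lowest correlation between arrays over all tested probes was 0.947, between P 2 and NP 4. Of the 4 neuron markers with a probe, Syn1, Uchl1 and Nefl lay above background on all 7 arrays and Snap25 on 3. The number of arrays limits the precision.

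A voltage-gated calcium channel is built around a pore subunit that opens when the membrane is depolarized. The α2δ subunits sit on the outer face of the membrane, help to bring channels to the surface and to presynaptic terminals, and 2 of them, those of Cacna2d1 and Cacna2d2, bind the drugs gabapentin and pregabalin. The β subunits lie in the cytoplasm and, in many of these channels, bind the loop between the first and second repeat of the pore subunit. They promote the delivery of that subunit to the membrane and shape its gating. The products of Cacng2 (stargazin) and Cacng3 are best known as auxiliary proteins of AMPA-type glutamate receptors.

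None of the 7 auxiliary subunit probes passed the test of P against NP brains over all 7 arrays. By limma at an adjusted p under 0.05, 0 of 7 member probes were called, where 0.29% of all 29003 tested probes were called. At an unadjusted p under 0.05 there was 1 of 7, the Cacna2d1 probe, where 11.5% of all probes passed. The P minus NP difference was below 0 for 5 probes and above 0 for 2, with a median of -0.08 on the log2 scale, against 0.01 over all tested probes. The median size of the difference, whatever its sign, was 0.13 for the members and 0.14 over all probes. The 95% interval of the difference stayed within 1 log2 unit, a 2-fold change, in either direction for all 7 probes.

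Cacna2d1 was the member with the widest gap between the lines. Its sequence before the start of transcription is shown with that of Cacnb3, because these are the members whose signal varied most among the rats. Both come from the RefSeq table of build GRCr8 and cover the 250 bases before the start that this table uses, while the RefSeq gene models of both genes also reach further upstream. The Cacna2d1 window is chr4:20330148-20330397 on the minus strand, for the most upstream of 3 starts in that table, and the Cacnb3 window is chr7:131666301-131666550 on the plus strand. Capitals mark the 6-letter GC box core GGGCGG, or CCGCCC where it lies on the other strand, the core of the site that Sp1-type factors bind.
Cacna2d1: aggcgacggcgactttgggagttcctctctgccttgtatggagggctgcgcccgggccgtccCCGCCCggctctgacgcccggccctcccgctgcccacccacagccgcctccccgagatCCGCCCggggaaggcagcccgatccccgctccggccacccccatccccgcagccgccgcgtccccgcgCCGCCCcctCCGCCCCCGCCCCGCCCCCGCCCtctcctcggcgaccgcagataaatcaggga
Cacnb3: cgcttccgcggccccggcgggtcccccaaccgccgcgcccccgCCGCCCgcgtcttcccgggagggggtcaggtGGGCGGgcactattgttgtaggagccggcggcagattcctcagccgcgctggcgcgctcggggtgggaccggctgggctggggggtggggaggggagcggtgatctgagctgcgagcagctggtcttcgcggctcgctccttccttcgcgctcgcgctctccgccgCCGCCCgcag
The core was found 7 times before Cacna2d1, where some copies overlap, and 3 times before Cacnb3. Before each of the other starts of Cacna2d1 in that table it was found 3 times. It occurs at least once in 30.5% of the 33469 windows of this length in the table. The windows shown are rich in G and C, at 77.2% and 76.4%, against a median of 51.2% over all windows. The E-box CACGTG (in 5.59% of all windows) and the TATA box TATAAA (in 12.9%), searched on both strands, were in neither. A match or its absence is a description of these letters only.

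Cacna2d1 encodes the α2δ subunit that is the main target of gabapentin. Its log2 normalized signal was 9.33, 8.92, 9.83 and 9.66 in P 1 to P 4, and 9.94, 9.87 and 10.06 in NP 2 to NP 4. All 4 P rats lay below all 3 NP rats, and P 1 and P 2 lay below P 3 and P 4. The mean was 9.43 ± 0.40 in the 4 P rats and 9.96 ± 0.10 in the 3 NP rats (± SD). The difference of -0.52 ± 0.20 (SE; 95% interval -0.96 to -0.09) is a P to NP ratio of 0.696 and did not pass (adjusted p = 0.382 by limma). Its size was larger than that of 97.6% of tested probes. Lines did not overlap for 2 of 7 member probes, Cacna2d1 and 1 probe of Cacnb1, against 13.3% of all probes with 7 values.

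The Cacna2d1 difference was called in 3 of the fits that treat the header dates differently, and not in the others. With a block for header date, a fit in which only the 4 arrays of date 1 bear on the line difference, P minus NP was -0.78 ± 0.16 (95% interval -1.13 to -0.43, adjusted p = 0.028), a ratio of 0.582. It was the 1 called member of 7 in that fit, where 5.72% of all probes were called. Within date 1 alone the means were 9.12 in P (n = 2) and 9.90 in NP (n = 2), with the same difference (adjusted p = 0.0286), again 1 of 7, where 6.47% of all probes were called. With the P arrays of date 3 left out it was -0.83 (adjusted p = 0.011), in a fit that called 11.5% of all probes. With the P arrays of date 1 left out it was -0.21 (adjusted p = 0.439). Taken as a random block, header date gave -0.65 (adjusted p = 0.0955), and 0 of 7 members were called, where 0.548% of all probes were. Each fit that called it rests on P 1 and P 2, the only P rats of date 1, or gives them all the weight of the P line.

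The deposited intensities, before any scaling between arrays, did not show that gap so plainly. The spot minus background intensity of Cacna2d1 was 538, 298, 1145 and 915 in P 1 to P 4, and 933, 794 and 1085 in NP 2 to NP 4. P 3 read above all NP arrays there, while P 1 and P 2 stayed below them. Unscaled readings also carry the brightness of each array. At Cacna2d2 (159 and 164) and Cacna2d3 (735 and 724), P 3 and P 4 read highest of all arrays before scaling, but not after it. No other member probe had both of these arrays on top. The part of array brightness in the P 3 reading of Cacna2d1 was not tested. In the log2 values of Cacna2d1 as processed by the authors, P read 2.57, 2.07, 3.11 and 2.91, and NP read 3.21, 3.15 and 3.37. In those values all P rats again lay below all NP rats.

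**Figure D1:**
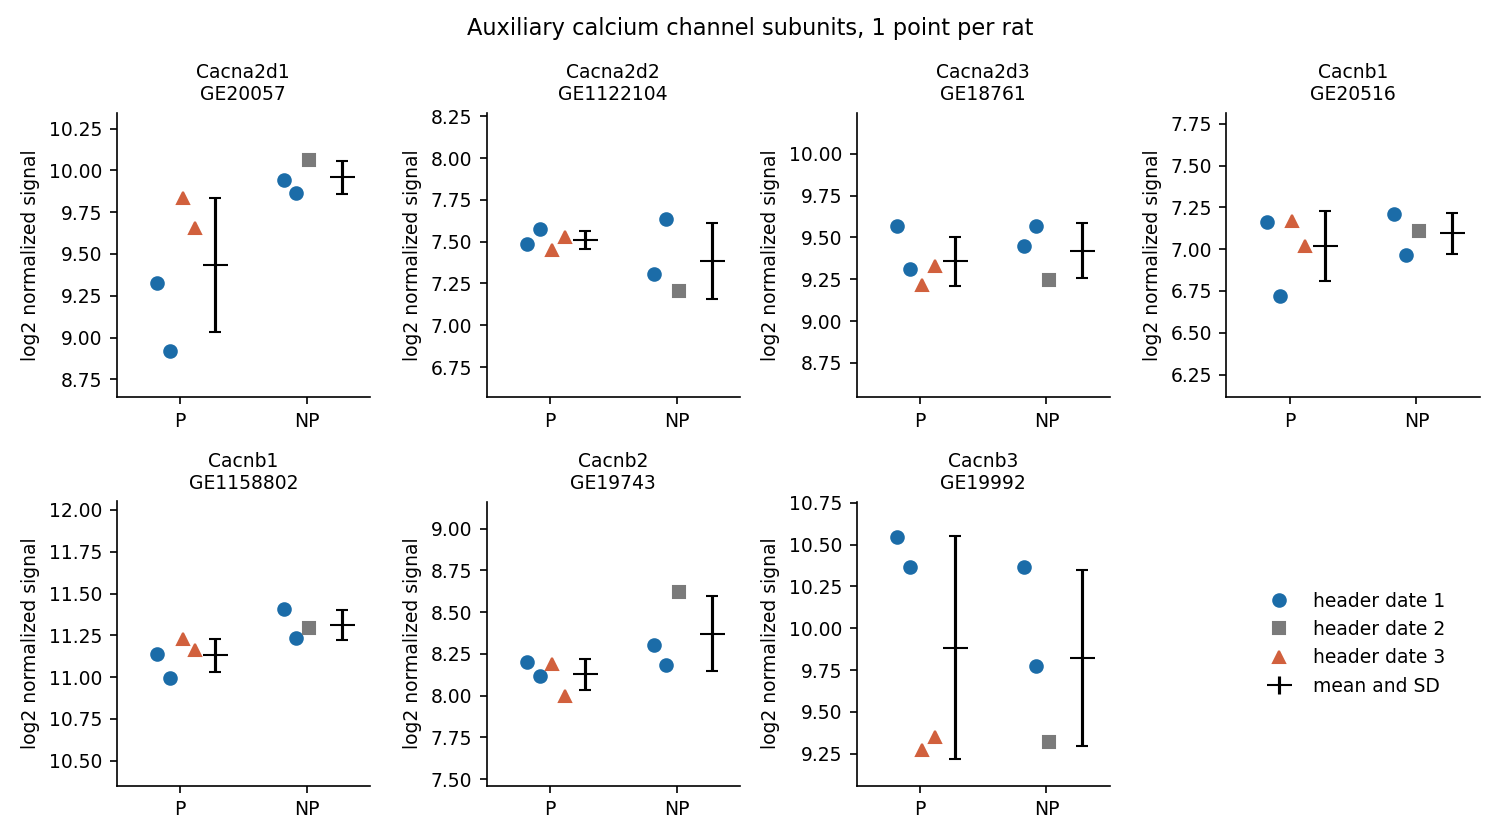
Log2 normalized signal (vertical axis, the same span of 1.7 units in every panel) of the 7 auxiliary subunit probes, 1 point per rat, with P left and NP right; symbol and colour give the header date, and bars the mean and SD. In Cacna2d1 all P rats lie below all NP rats, and in Cacnb3 the 4 rats of header date 1 lie above the other 3 in both lines.

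Cell type markers were read in the same blocked fit. Of 43 marker genes tested in 11 lists, 2 were called there, where 5.58% of named genes were called, and both were lower in P: Aif1, a microglial protein (-1.23 ± 0.20, adjusted p = 0.0154), and Calb1, a calcium-binding protein abundant in Purkinje cells (-0.73 ± 0.17, adjusted p = 0.0416). The other 4 microglial markers tested were not called and lay above 0, with Itgam at 0.29, Csf1r at 0.18, Cd68 at 0.14 and Cx3cr1 at 0.0059, and the median of the 5 was 0.14. Their summed signal was 3105 to 3361 in P and 3077 to 3475 in NP. The summed signal of the 4 tested cerebellar markers was 3228 to 3753 in P and 3684 to 4114 in NP. Aqp4, a water channel of astrocytes, was at -0.73 ± 0.19 and missed the threshold (adjusted p = 0.0533). The other astrocyte markers were not called either, with Aldh1l1 at 0.41, Gfap at 0.29, S100b at 0.04 and Slc1a3 at -0.07. The median of the 5 astrocyte markers was 0.04. Over all 7 arrays without a block, 0 of the 43 marker genes were called. Aif1 was then at -0.81 (adjusted p = 0.302 by limma) and Calb1 at -0.40 (adjusted p = 0.45). No marker with a probe was below background on every array. In whole tissue, fewer cells of a type and less RNA per cell cannot be told apart. The part of these cells in the Cacna2d1 difference was not tested.

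The other α2δ genes did not pass the test between the lines. Cacna2d2, whose loss causes ataxia and seizures in the ducky mouse, read 7.48, 7.57, 7.45 and 7.53 in P 1 to P 4 and 7.30, 7.64 and 7.20 in NP 2 to NP 4. The P rats lay close together, within the range of the NP rats. The difference was 0.13 ± 0.13 (95% interval -0.16 to 0.42, adjusted p = 0.703 by limma). It was 0.04 without NP 4, 0.26 without NP 3 and between these when another array was left out. Cacna2d3, an α2δ gene expressed mainly in brain, read 9.22 to 9.57 in P and 9.25 to 9.57 in NP, nearly the same range. Its difference was -0.06 ± 0.13 (95% interval -0.36 to 0.23, adjusted p = 0.858).

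Among the β genes, Cacnb1 was measured by 2 probes for the same RefSeq transcript. Cacnb1 encodes the β subunit that skeletal muscle needs for excitation-contraction coupling and that is also made in brain. Probe GE1158802 read 11.14, 10.99, 11.23 and 11.16 in P 1 to P 4, and 11.41, 11.23 and 11.29 in NP 2 to NP 4. The lines did not overlap, but P 3 and NP 3, the nearest pair, were almost level. The difference was -0.18 ± 0.11 (95% interval -0.44 to 0.07, adjusted p = 0.536). Probe GE20516 read 6.72 to 7.17 in P and 6.97 to 7.21 in NP, not far above the negative control spots, whose medians before scaling between arrays were 6.19 to 6.33. The lines overlapped at this dimmer probe, with a difference of -0.08 ± 0.14 (adjusted p = 0.842). The 2 probes had the same sign and neither passed, and their values over the 7 arrays had a Pearson r of 0.762, which is given as a description. Since the probes differ in brightness, their levels say nothing of the amount of transcript.

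Cacnb2, the β subunit that dominates in heart and is also found in brain, read 8.20, 8.12, 8.19 and 8.00 in P 1 to P 4, and 8.30, 8.19 and 8.62 in NP 2 to NP 4. NP 4 stood highest, and NP 3 lay among the P rats. The difference was -0.24 ± 0.13 (95% interval -0.54 to 0.05, adjusted p = 0.482). Without NP 4 it was -0.12, and it reached -0.34 without NP 3. With header date as a block it was -0.09 ± 0.13.

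Cacnb3 had the largest SD of the members in both lines and did not pass the test between the lines. Its product is a β subunit of neuronal N-type and L-type channels. The log2 signal was 10.55, 10.37, 9.27 and 9.35 in P 1 to P 4, and 10.37, 9.78 and 9.32 in NP 2 to NP 4. The high values in both lines were those of header date 1, and P 3, P 4 and NP 4 were nearly level. The mean was 9.88 ± 0.67 in the 4 P rats and 9.82 ± 0.53 in the 3 NP rats (± SD). The difference of 0.06 ± 0.34 (adjusted p = 0.953) had the widest interval of the members, -0.70 to 0.82, so that a change of the size seen for Cacna2d1 in either direction lies inside it. With header date as a block Cacnb3 was at 0.39 ± 0.18 (95% interval -0.02 to 0.79, adjusted p = 0.218). Its sign turned to -0.51 (adjusted p = 0.337) without the P arrays of date 1.

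**Figure D2:**
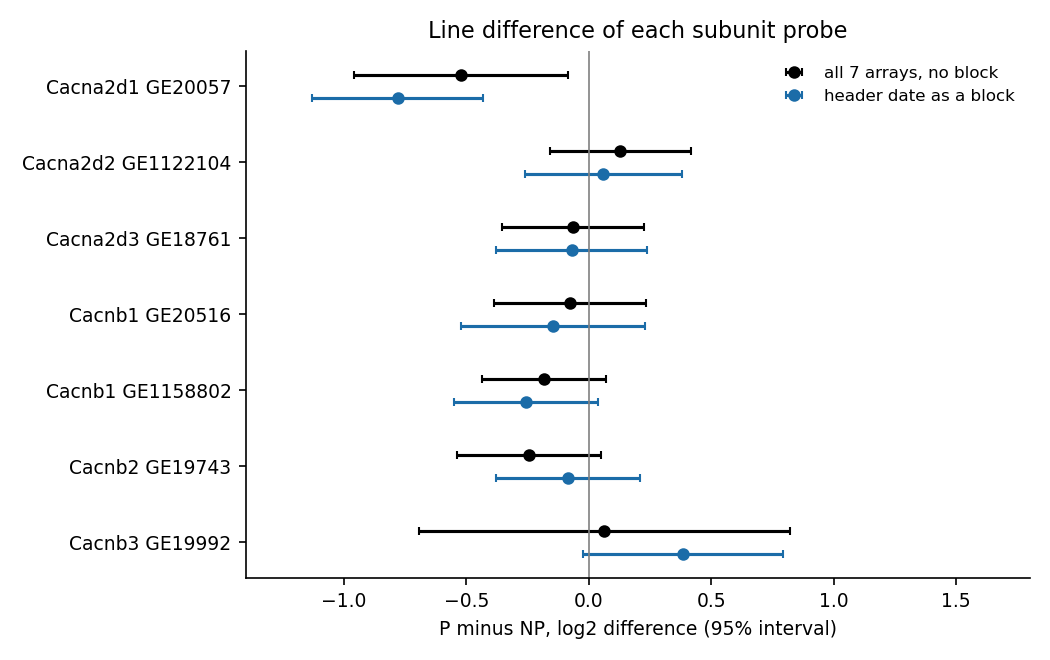
P minus NP log2 difference (horizontal axis) with its 95% interval for each of the 7 probes, over all 7 arrays (black) and with header date as a block (blue). The Cacna2d1 interval lies below 0 in both, and of the 7 blocked differences only that of Cacna2d1 passed after adjustment over all probes.

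The P rats were then set against each other by header date, P 3 and P 4 minus P 1 and P 2. These are separate rats, so header date and differences between the rats cannot be told apart in this split. In this split 2 of 7 member probes were called, Cacnb3 lower and Cacna2d1 higher in P 3 and P 4. Of all 28923 probes tested, 16.7% were called, 9.15% higher and 7.56% lower, so calls were common here. Cacnb3 averaged 9.31 in P 3 and P 4 and 10.46 in P 1 and P 2, a difference of -1.15 ± 0.18 (adjusted p = 0.00569), larger in size than that of 99.2% of probes. Cacna2d1 averaged 9.75 in P 3 and P 4 and 9.12 in P 1 and P 2, a difference of 0.62 ± 0.16 (adjusted p = 0.0254). Both missed the threshold with plain background subtraction (adjusted p = 0.0537 for Cacnb3 and 0.0961 for Cacna2d1) and in the authors' processed values (adjusted p = 0.0535 and 0.103), with like differences of -1.21 for Cacnb3 in each. The other 5 member probes differed by -0.16 to 0.15 and did not pass.

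Syn1, a protein of synaptic vesicles and a neuron marker, was also high in P 1 and P 2. Its brightest probe read 12.21, 11.78, 10.58 and 10.90 in P 1 to P 4, and 11.83, 11.05 and 11.18 in NP 2 to NP 4. P 3 and P 4 were lower than P 1 and P 2 by -1.26 ± 0.24 (adjusted p = 0.00969). Of the 4 neuron markers tested, Syn1 was the 1 called in this split. Uchl1 (0.01 at its brightest probe) and Nefl (-0.08) were near level there. Snap25, above background on 3 arrays, was at -0.40. The summed signal of the 4 was 10173 to 14350 in P and 8574 to 12624 in NP. Over all 11 marker lists 6 of 43 genes were called lower and 1 higher in P 3 and P 4, where 18.4% of named genes were called in either direction. The microglial markers went both ways: Aif1 was called higher (0.75 ± 0.20, adjusted p = 0.0282), and Cd68 (-0.60 ± 0.14, adjusted p = 0.0177) and Itgam (-0.43 ± 0.12, adjusted p = 0.0419) were called lower. Among astrocyte markers Gfap (-0.71) and Aldh1l1 (-0.56) were called lower, while Aqp4 (0.48), Slc1a3 (0.12) and S100b (-0.26) were not called. The striatal marker Ppp1r1b (-0.65) was called lower. Drd2 (-0.44), Adora2a (-0.41 at its brightest probe), Penk (-0.02) and Drd1 (0.36) were not called. The median of the 5 striatal markers was -0.41. The markers not called, and Itgam, were named after their values were seen. The part of neuron content in the Cacnb3 split was not tested.

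**Figure D3:**
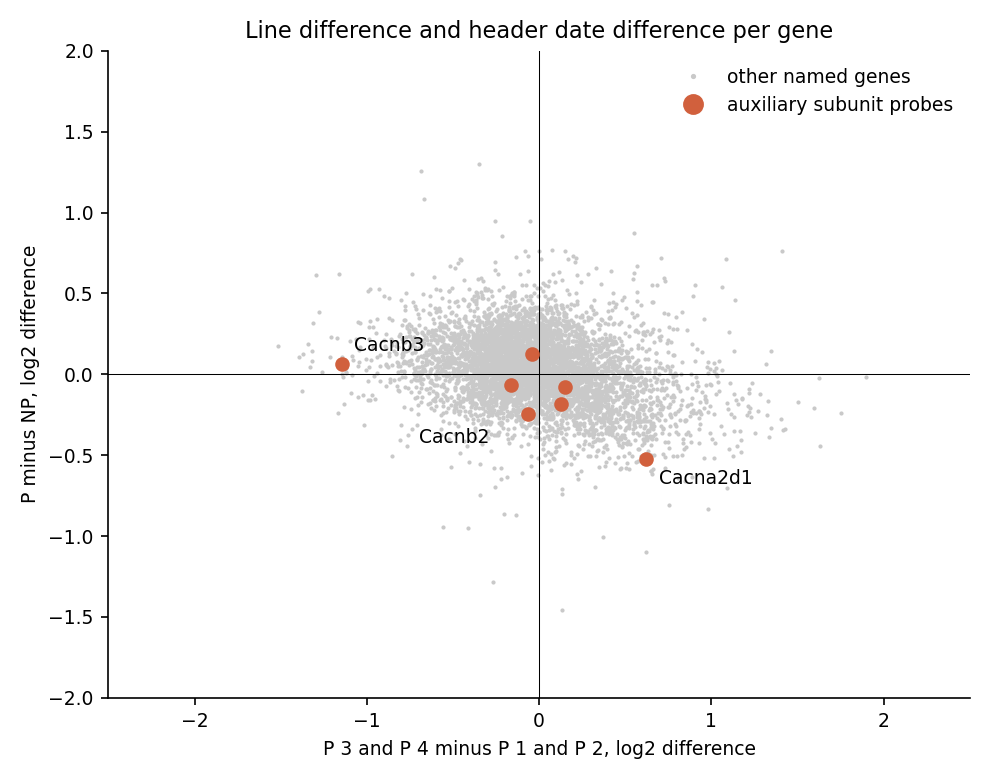
Each point is 1 probe: P 3 and P 4 minus P 1 and P 2 on the horizontal axis and P minus NP on the vertical axis, both as log2 differences, with the 7 auxiliary subunit probes in orange and 5647 other named genes (brightest probe) in grey, of which 6 lie outside the plotted range. Both axes use the 4 P arrays. Cacnb3 lies far left at a line difference of 0.06, and Cacna2d1 lies right of centre at -0.52.

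The pore subunits were taken from a list of 10 genes, of which 7 had a tested probe. Over all 7 arrays 0 of 7 were called by limma, and 0.176% of all 5677 named genes were, by their brightest probe. The list median was 0.21, against 0.03 over all named genes. The smallest p was that of Cacna1c, an L-type pore subunit (0.27 ± 0.14, adjusted p = 0.466). In the split of the P rats by header date 3 of 7 were called, all lower in P 3 and P 4, where 18.4% of named genes were called. They were Cacna1h (-1.12 ± 0.13, adjusted p = 0.00311) and Cacna1g (-0.79 ± 0.19, adjusted p = 0.02), which form T-type channels, and Cacna1a (-0.86 ± 0.23, adjusted p = 0.0324), the P/Q-type pore subunit. A dimmer probe of Cacna1a missed the threshold there (-0.43 ± 0.16, adjusted p = 0.0911). These 3 genes and Cacnb3 moved the same way between the pairs of P rats, and they are named after their values were seen.

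Of 7 other auxiliary genes, 3 were tested and none was called in the line comparison, with the smallest p at Cacng5 (-0.12 ± 0.13, adjusted p = 0.707). None of the 4 thrombospondin genes, whose products are ligands of the α2δ subunit of Cacna2d1, had a matched probe. Of 7 genes for small GTPases and STAC proteins that bind the channel, 2 were tested and neither was called, with Rem2 at 0.15 ± 0.12 (adjusted p = 0.621).

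Calmodulin and related calcium sensors bind the pore subunit and tune its inactivation. Of 6 tested, 0 were called over all 7 arrays, and the smallest p was that of Camk2b, a subunit of the calcium and calmodulin-dependent kinase that acts on β subunits. Camk2b read 7.61, 7.29, 7.46 and 7.78 in P 1 to P 4, and 6.76, 6.86 and 6.85 in NP 2 to NP 4. All P rats lay above all NP rats, by 0.71 ± 0.14 (adjusted p = 0.0912). With header date as a block it was called (0.64 ± 0.16, adjusted p = 0.0467), 1 of 6 in its list, where 5.58% of named genes were called.

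Among presynaptic proteins that tie calcium channels to vesicles, 6 of 9 genes were tested and none was called between the lines. Stx1a, a syntaxin of the release machinery, had the smallest p (0.27 ± 0.14, adjusted p = 0.466). Bsn, a scaffold of the active zone, was called lower in P 3 and P 4 than in P 1 and P 2 (-0.67 ± 0.16, adjusted p = 0.0194). It was the 1 called of 6 in that split, where 18.4% of named genes were called. Of 9 genes for AMPA receptors and their other auxiliary proteins, 3 were tested and none was called in either comparison. Gria4, an AMPA receptor subunit, had the smallest p between the lines (-0.28 ± 0.14, adjusted p = 0.455).

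**Figure D4:**
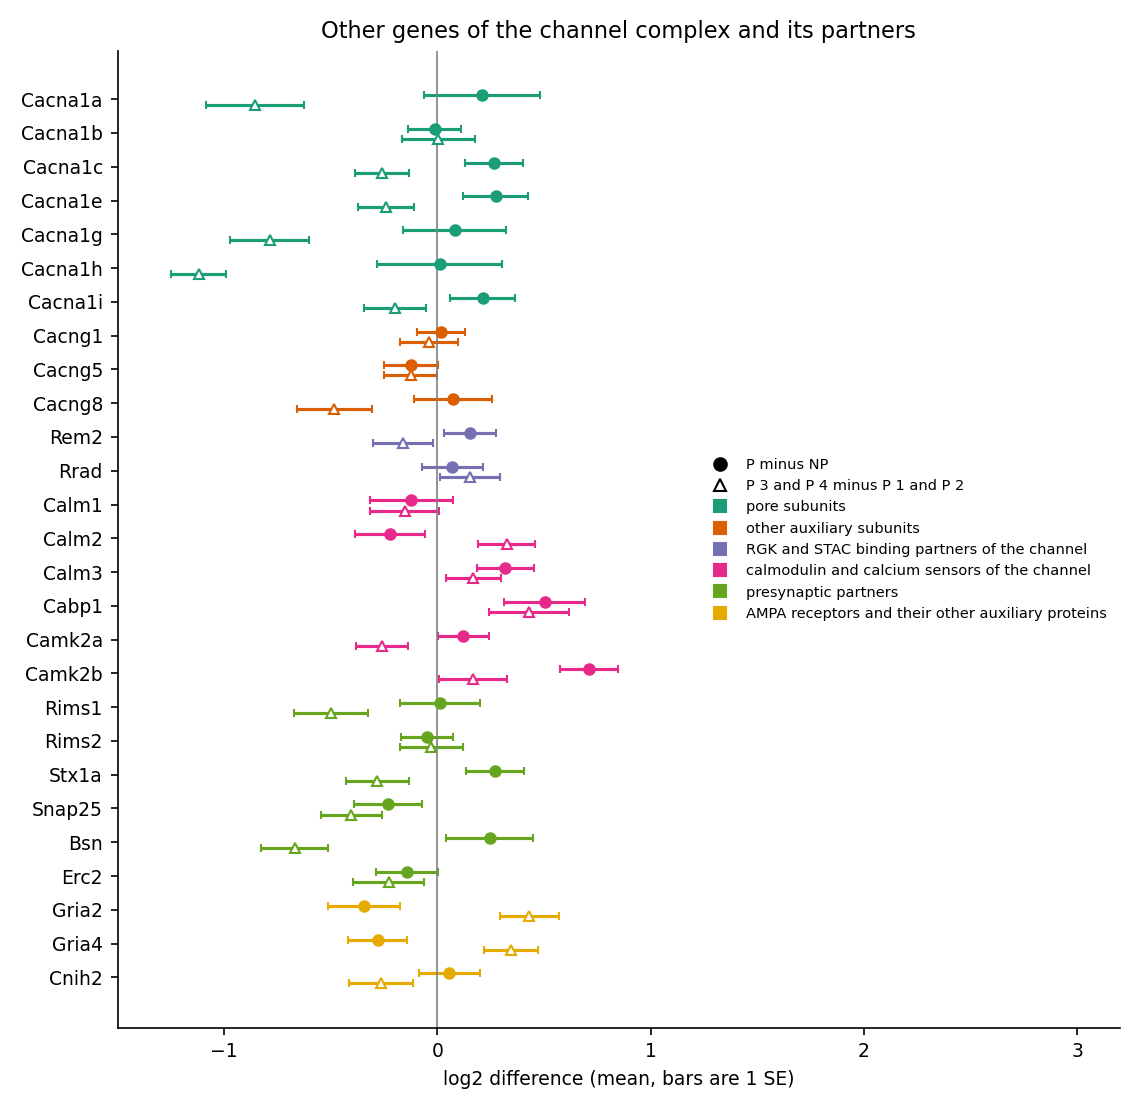
Log2 differences (horizontal axis, bars are 1 SE) of the 27 tested genes of the pathway lists, by their brightest probe, for P minus NP (filled circles) and for P 3 and P 4 minus P 1 and P 2 (open triangles), coloured by list. Camk2b has the largest line difference, at 0.71, and Cacna1h the largest difference between the pairs of P rats, at -1.12.

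The members varied in different ways over the arrays. Over their 21 probe pairs, Pearson's r over the 7 arrays lay between -0.833, for Cacna2d2 with Cacnb2, and 0.898, for Cacna2d1 with the brighter Cacnb1 probe. Cacna2d1 and Cacnb3 had an r of -0.589. These values share arrays, line and header date, and are descriptions.

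For each member the named gene with the most similar pattern was sought among 5427 probes of other genes above background on all 7 arrays (5426 for Cacnb1). Cacna2d1 was closest to Xpo1, a nuclear export receptor (r = 0.993), which read 9.23, 8.95, 9.64 and 9.54 in P 1 to P 4 and 9.68, 9.64 and 9.72 in NP 2 to NP 4. Cacnb3 was closest to Ehmt2, a histone methyltransferase (r = 0.992), which read 10.07, 10.04, 9.11 and 9.30 in P 1 to P 4 and 10.02, 9.57 and 9.14 in NP 2 to NP 4. In both pairs P 3 and P 4 lay on the same side of P 1 and P 2. The closest genes were Cmtr1 for Cacna2d2 (r = 0.982), Eif2ak3 for Cacna2d3 (r = 0.945), Taf9 for Cacnb1 (r = 0.985) and Ubr7 for Cacnb2 (r = 0.977). Each r is the highest of all probes searched, over 7 arrays.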

How the data were processed

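RNA of 1 whole brain per array was labelled with biotin, per the labels' protocols. The authors deposited, per the file headers, for each spot a mean intensity, a local background median, their difference, that difference divided by 1 number per array, and a flag. How the authors made the log2 values that they also deposited is not stated. These followed the log2 of the divided intensity (lowest r 0.9985, array medians -0.07 to 0.05).

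From the spot and background intensities, limma 3.58.1 (R 4.3.3) corrected the background by normexp with offset 50 over all spots. Control spots were then dropped and arrays quantile normalized. Outlier-flagged spots were treated as missing. Probes above background on at least 3 arrays were kept. Lines were compared with lmFit and eBayes without a block, with Benjamini-Hochberg adjustment over all 29003 probes, and differences are P minus NP. The header date split was fitted with 4 groups of line and date. The fit was tested on simulated data.

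Names came from RefSeq accessions in the GRCr8 table. All members were named. From each pathway list the called genes were named, up to 3, or that with the smallest p, and from each marker list called genes, up to 2. Members and lists were chosen with earlier results of these data known. Alternatives changed background correction, scaling, filter, flags, variance model, array weights, blocks and arrays. Figures were drawn with matplotlib 3.10.9.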

Additional observations from a re-analysis of the deposited data

Results flagged for a closer look

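Values of the 7 arrays were also searched for a member with 1 P rat far from the other 3. None of the 7 sets of P values met that criterion, and the NP group, with 3 rats, was not searched.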

How the results depend on the processing

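Over 24 alternative settings of the line comparison, 156 member differences kept their sign and their side of the threshold, 3 became called and 9 changed sign. The number of called member probes was 0 except for 1, Cacna2d1, with header date as a block, within header date 1 and without the P arrays of date 3. It was 0 whichever single array was left out, where Cacna2d1 lay between -0.66 and -0.35. The number of all called probes, 84, became 51 in the authors' processed values, 49 for probes above background on all arrays, 151 with array weights, 159 with header date as a random block, 1660 with it as a fixed block, 1870 within date 1, 189 without the P arrays of date 1 and 3318 without those of date 3, and lay between 51 and 121 when 1 array was left out (51 without NP 4, 53 without NP 3). Called genes of the pathway and marker lists, 0, became 1 with array weights, 3 with the block, 6 within date 1, 1 without the P arrays of date 1 and 11 without those of date 3, and 0 to 1 when 1 array was left out. For the P rats by header date, 2 called members became 0 with plain background subtraction, 1 with offset 16 and 0 in the authors' values, and 0 to 2 when 1 P array was left out (0 without P 2, 1 without P 3).

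Signs of small differences turned. Between the lines Cacnb3 was at -0.0499 with array weights and -0.51 without the P arrays of date 1, and between -0.19 and 0.34 when 1 array was left out. Cacna2d3 was at 0.0176 without the P arrays of date 3, and between -0.15 and 0.0096 when 1 array was left out, and the dimmer Cacnb1 probe lay between -0.14 and 0.0232. Between the pairs of P rats Cacna2d2 was at 0.0052 with cyclic loess and 0.0216 in the authors' values, and the dimmer Cacnb1 probe at -0.12 with scaling to the 75th percentile. When 1 P array was left out Cacna2d2 lay between -0.0854 and 0.0046, that Cacnb1 probe between -0.0721 and 0.37, and Cacnb2 between -0.16 and 0.0272. The cause of these changes was not tested.

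Replicate numbers are shared by the lines, but no label says that they pair rats. Deviations of same-numbered rats correlated at 0.097, 0.057 and 0.021, and 2 of 6 arrays correlated best with their own number. With the replicate block, on replicates 2 to 4, 104 probes and 0 member probes were called, and Cacnb3 was at -0.16. Signal over background limits the dimmer Cacnb1 probe and Cacna2d2 most.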
